A study of Mus musculus with 6 samples.

Results

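Chromosome 15 carried 867 of the 23355 gene entries measured by RNA sequencing in ID4-GFP+ mouse spermatogonia. The 445 entries examined here are those whose deposited position lies on chromosome 15 and whose larger group value was at least 1 FPKM, a fragment count corrected for transcript length and library size. They are set against 11692 entries of other chromosomes that reach the same level. The groups were ID4-GFP+ spermatogonia from mice with ID4 germ cell overexpression (3 samples) and from control mice (3 samples). The labels give testis as the source, describe the overexpression as constitutive, and give neither its promoter nor the age or strain of these animals, and they do not say whether samples came from separate mice. The genes were thus chosen by their measured FPKM in these groups, on a chromosome picked because earlier results of the same comparison showed a shared decrease. The direction of its genes is therefore a description and carries no test of its own.

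Mouse chromosome 15 is a mid-sized autosome with no single shared function. It holds genes that every cell uses, for respiration, translation and transcription, beside meiotic genes and clusters of tissue-restricted genes such as the Ly6 family, the type II keratins and the HoxC genes. ID4 is an inhibitor of DNA binding that sequesters basic helix-loop-helix proteins, whose recognition sequence is the E-box, spelt CANNTG. The spermatogonial stem cells, which sustain sperm production, are found among spermatogonia with the ID4 reporter.

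The table gives 1 value per group, combined by the authors over replicates, so no replicate SD can be given and the depth per sample is unknown. The replicates enter only through the authors' test. A gene is called here when the authors' deposited table lists a q-value of at most 0.05, and "rose" and "fell" are kept for called genes. Id4 was at 13.4 FPKM with overexpression and 6.37 FPKM in controls. Each of the 14 markers of undifferentiated spermatogonia examined reached 1 FPKM in at least 1 group, with sums of 931 FPKM with overexpression and 1082 FPKM in controls. Of these, 6 rose and 2 fell, with a median log2 ratio of 0.30. The lower sum came with Uchl1, the most abundant, at 464 FPKM with overexpression and 696 FPKM in controls. Markers of other testis cells were present too. Summed FPKM was 233 with overexpression and 68.7 in controls for 13 Sertoli cell markers, 190 and 47.0 for 11 macrophage markers, 73.0 and 26.2 for 6 Leydig cell markers, and 3.42 and 3.56 for 5 myoid markers. Of these, H2-Aa, a class II gene, was the only one listed at 0, in controls. In bulk samples, fewer cells of a type and less RNA per cell cannot be told apart.

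Promoters of 4 genes introduce both kinds of behaviour found on the chromosome. Ndufa6, a subunit of respiratory complex I, and Syce3, a protein of the synaptonemal complex, fell. Amhr2, the receptor for anti-Müllerian hormone, and Mapk11, which encodes the kinase p38 beta, rose. Each run of 300 bases is from RefSeq (GRCm38.p6), 250 before to 50 after the gene start, read 5′ to 3′ on the gene's strand. Capitals mark E-boxes (CANNTG, which reads the same on both strands).
Ndufa6, chr15:82354242-82354541, minus strand: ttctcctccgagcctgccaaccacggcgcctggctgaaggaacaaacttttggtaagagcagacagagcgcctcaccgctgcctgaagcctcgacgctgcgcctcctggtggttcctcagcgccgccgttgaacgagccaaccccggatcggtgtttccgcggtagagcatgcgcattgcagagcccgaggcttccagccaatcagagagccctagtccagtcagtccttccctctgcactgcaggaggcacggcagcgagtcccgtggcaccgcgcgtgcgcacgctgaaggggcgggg
Syce3, chr15:89410454-89410753, minus strand: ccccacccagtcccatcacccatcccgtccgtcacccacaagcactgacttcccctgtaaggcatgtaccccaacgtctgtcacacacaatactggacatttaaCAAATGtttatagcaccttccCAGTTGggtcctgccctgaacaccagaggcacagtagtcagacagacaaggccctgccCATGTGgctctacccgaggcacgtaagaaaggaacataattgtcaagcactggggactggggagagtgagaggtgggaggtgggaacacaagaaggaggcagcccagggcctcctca
Amhr2, chr15:102445117-102445416, plus strand: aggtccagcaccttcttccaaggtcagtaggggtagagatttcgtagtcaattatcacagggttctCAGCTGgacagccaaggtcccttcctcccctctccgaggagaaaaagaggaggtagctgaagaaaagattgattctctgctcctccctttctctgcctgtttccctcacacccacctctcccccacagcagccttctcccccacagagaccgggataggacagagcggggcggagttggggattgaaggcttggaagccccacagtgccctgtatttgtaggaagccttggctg
Mapk11, chr15:89149557-89149856, minus strand: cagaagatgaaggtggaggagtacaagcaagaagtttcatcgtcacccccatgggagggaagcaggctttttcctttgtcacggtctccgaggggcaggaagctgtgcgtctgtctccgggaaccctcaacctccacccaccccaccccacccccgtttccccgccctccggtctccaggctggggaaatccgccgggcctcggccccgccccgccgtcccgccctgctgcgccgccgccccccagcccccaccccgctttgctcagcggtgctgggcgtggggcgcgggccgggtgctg
Syce3 has 3 E-boxes in this window and Amhr2 has 1, which has the form CAGCTG. Ndufa6 and Mapk11 have none. Promoters were matched for 248 of the 445 genes, and 142 of them (57.3%) held an E-box, against 63.1% of 8793 promoters of genes expressed from other chromosomes and 72.1% of all 27025 promoters in the table. The share was 59.4% in 128 matched genes that fell and 66.7% in the 9 that rose. CAGCTG, which is one form of the E-box, was in 14.5% of the matched chromosome 15 promoters and in 14.6% of those of expressed genes elsewhere. In all promoters of the table it was in 16.1%. Median GC content was 62.8% for chromosome 15 and 60.7% for expressed genes elsewhere.

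Most expressed genes of chromosome 15 were lower with overexpression. Of 413 that the authors tested, 232 fell (56.2%) and 16 rose (3.87%), whereas 7.42% of all 10990 tested genes fell and 9.59% rose. Of 10577 tested genes outside chromosome 15, 5.51% fell and 9.81% rose. At a q of at most 0.01, 177 chromosome 15 genes fell and 12 rose, against 4.09% and 6.04% of all tested genes. At a q of at most 0.1, 261 fell and 19 rose, against 9.77% and 12.3%. A further 165 were tested and not called, 140 of them with log2 ratios below 0. Of 444 genes with a value above 0 in both groups, 391 (88.1%) had a ratio below 1, against 46.7% of 11668 genes on other chromosomes. The median log2 ratio, overexpression over control, was -0.63 with quartiles of -0.84 and -0.34, which is a median FPKM ratio of 0.648. The median on other chromosomes was 0.03. Summed over these genes, chromosome 15 gave 19673 FPKM with overexpression and 31073 FPKM in controls, or 2.62% and 3.96% of the expressed total. The sums over other chromosomes had a ratio of 0.968.

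The medians of the other 19 chromosomes ran from -0.01 on chromosome 4 to 0.15 on X. Their shares of tested genes that fell ran from 2.99% on chromosome 13 to 7.17% on chromosome 2. The interquartile range among genes was 0.50 on chromosome 15, and lay between 0.46 and 0.59 on the other chromosomes. The distribution as a whole lay lower: at the 5th percentile chromosome 15 was 0.67 below the other chromosomes on the log2 scale, at the 25th 0.63, at the 75th 0.64 and at the 90th 0.63. At the 95th percentile the gap was 0.39, with values of 0.86 for chromosome 15 and 1.25 for other chromosomes. Of genes elsewhere, 6.74% were at or below the chromosome 15 median.

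**Figure D1:**
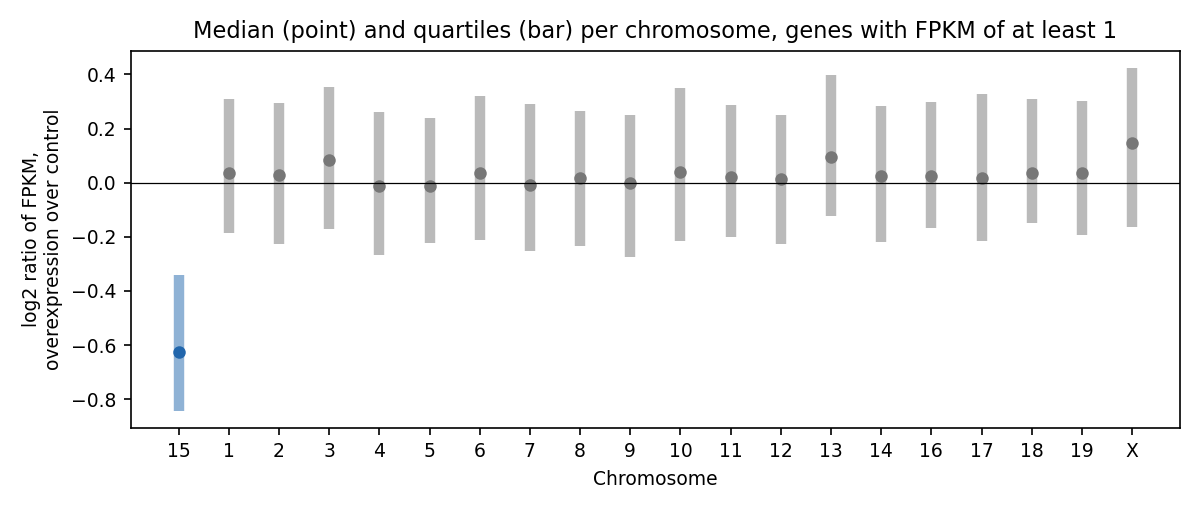
Median (points) and quartiles (bars) of the log2 ratio of FPKM, overexpression over control, per chromosome, for genes with FPKM of at least 1. The chromosome 15 median is -0.63, and the other 19 medians lie between -0.01 and 0.15.

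The decrease ran along the whole chromosome and was smaller near its start and between 90 and 100 Mb. The first gene by position was Sepp1, at 3270767 to 3280508, and the last was Pde1b, at 103503298 to 103530052 (GRCm38). Interval medians below are over gene starts in steps of 10 Mb. All 9 intervals with at least 10 genes had medians below 0, from -0.76 between 70 and 80 Mb (109 genes) to -0.32 between 10 and 20 Mb (15 genes). None of 238 such intervals on other chromosomes was as low as the highest of them, since the lowest elsewhere was -0.17, between 90 and 100 Mb of chromosome 6. The 2 thin intervals, with 7 genes each, had medians of -0.58 (20 to 30 Mb) and -0.66 (40 to 50 Mb). Between 90 and 100 Mb the median was -0.45 (65 genes with a ratio), and 25 of 59 tested genes fell. Over 21 consecutive genes the running median stayed between -0.85 and -0.25 in all 424 windows. The highest window had starts from 93398350 to 97784365, and the lowest from 60014866 to 74796874.

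In the first 30 Mb, 16 of 39 tested genes fell and the median was -0.41. Beyond 30 Mb, 216 of 374 fell and the median was -0.65. Among genes with at least 20 FPKM the medians were -0.44 (15 genes) and -0.70 (145 genes). Between 60 and 80 Mb, 69 of 109 tested genes fell, and the median was -0.83 among 38 genes with at least 20 FPKM. From 90 Mb to the end, 45 of 100 tested genes fell and the median was -0.56. These stretches were chosen after their values were seen, and the differences between them were not tested. Genes on the plus and minus strands had medians of -0.64 (204 genes) and -0.61 (233 genes).

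**Figure D2:**
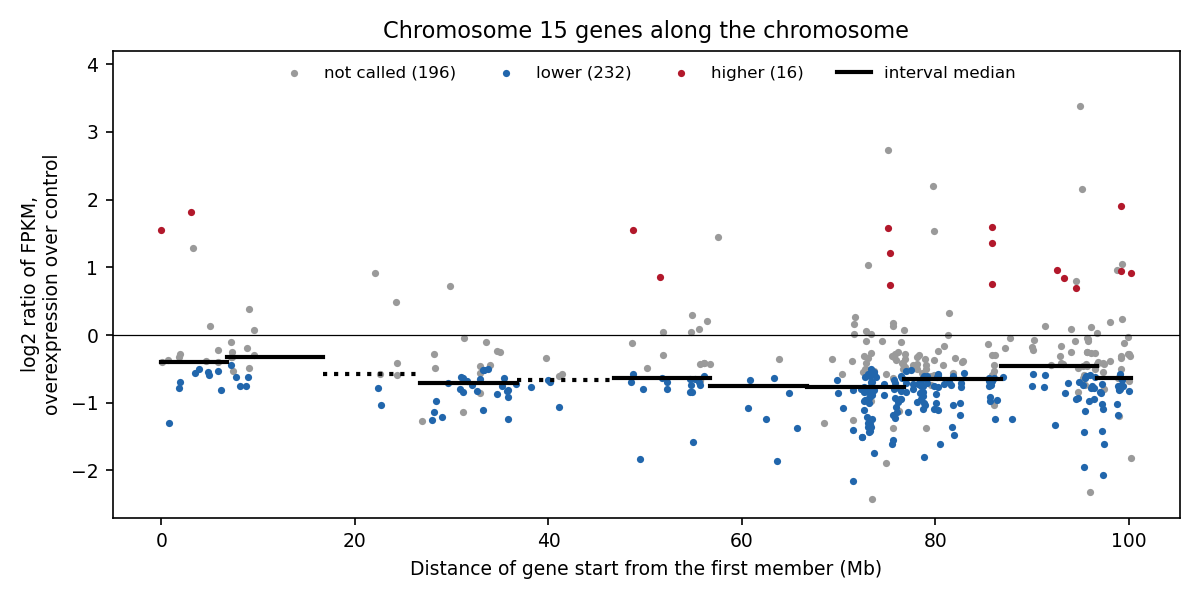
Log2 ratio of FPKM, overexpression over control, of each of 444 chromosome 15 genes against the distance of its start from the first of them (Mb). Colours give the call, and black lines the medians per 10 Mb interval (dotted where fewer than 10 genes). Interval medians lie between -0.76 and -0.32, and the 16 genes that rose lie singly or in short runs between genes with ratios mostly below 0.

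The shift was present in all 4 classes of expression level from 1 FPKM upwards, with the narrowest spread among abundant transcripts. At 1 to 5 FPKM in the higher group, the median log2 ratio was -0.55 on chromosome 15 (132 genes) and 0.05 on other chromosomes. At 5 to 20 FPKM it was -0.62 on chromosome 15 (152 genes) and 0.03 elsewhere. At 20 to 100 FPKM it was -0.66 (108 genes) and 0.03, and at 100 FPKM and over -0.72 (52 genes) and -0.02. The interquartile range on chromosome 15 was 0.88 in the lowest class and 0.26 in the highest. Elsewhere it was 0.81 and 0.35. The share of tested genes that fell was 37.9% in the lowest class, 51.3% and 72.0% in the next classes, and 74.5% in the highest. On other chromosomes these shares were 6.43%, 5.90%, 4.70% and 4.07%. Genes that fell had a median level of 19.9 FPKM in the higher group, and those below 0 that were not called had 8.20 FPKM. The weakest called decrease was -0.44.

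**Figure D3:**
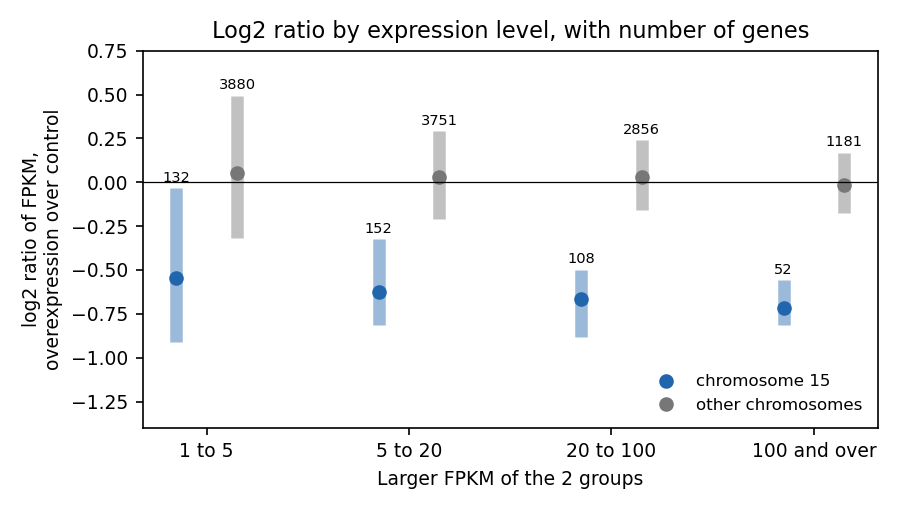
Median (points) and quartiles (bars) of the log2 ratio of FPKM, overexpression over control, in 4 classes of the larger FPKM, for chromosome 15 (left of each pair) and other chromosomes (right), with numbers of genes. The chromosome 15 medians run from -0.55 to -0.72, and the others from 0.05 to -0.02.

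Near the threshold of 1 FPKM, Smpd5 was just inside, with 1.01 FPKM with overexpression and 0.491 FPKM in controls, as was Pdzd2, with 1.01 and 0.772 FPKM. Arhgap39 was just outside, with 0.561 and 0.996 FPKM, as was Cyp2d22, with 0.988 and 0.980 FPKM. Of the 445 genes, 31 were not tested by the authors and 1 had too little data. The untested gene Snora34, a small nucleolar RNA, was listed at 0 with overexpression and at 171 FPKM in controls and has no ratio. By GENCODE class, 427 were protein-coding (median -0.63, 228 fell and 16 rose). Another 11 had other classes, of which 3 fell, and 7 had no match. The long noncoding C330013E15Rik, at 0.729 FPKM with overexpression and 3.05 FPKM in controls, was among those that fell (authors' deposited table, q = 0.0469).

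Genes of respiration fell, as most tested genes of the chromosome did. All 5 genes for respiratory chain and ATP synthase subunits on the chromosome 15 list fell, with a median log2 ratio of -0.75. Over all expressed genes of the chromosome, 56.2% of those tested fell and the median was -0.63. The list was narrowed to subunits after its values were seen, so its count was not chosen blind. On other chromosomes, 1 of 77 such genes fell and 2 rose, with a median of -0.02. Cox6c, of cytochrome c oxidase, had 1048 FPKM with overexpression and 1852 FPKM in controls, and its exons overlap Vps13b on the opposite strand. Ndufb9, of complex I, had 693 and 1153 FPKM, and Ndufa6, whose promoter is given above, had 280.5 and 457 FPKM. Atp5g2, of the ATP synthase ring, had 358 FPKM with overexpression and 603 FPKM in controls. Cyc1, cytochrome c1 of complex III, was lowest relative to controls, with 88.4 FPKM with overexpression and 226 FPKM in controls, a log2 ratio of -1.35. For all 5 the authors' deposited table lists a q of 0.000835, the smallest in it. That value is shared by 115 of the 232 chromosome 15 genes that fell, so it does not single these 5 out.

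Genes of translation and RNA synthesis showed the same direction. Of 24 on the list, 17 fell and 0 rose, and all 24 ratios were below 1, with a median log2 ratio of -0.68. Over all expressed genes of the chromosome 56.2% of those tested fell, 88.1% had ratios below 1 and the median was -0.63. The initiation factor 3 subunits Eif3h and Eif3l had 377 and 306 FPKM with overexpression, against 606 and 502 FPKM in controls. Eif3d had 223 FPKM with overexpression and 411 FPKM in controls, and Eif3e had 164 and 260 FPKM. Polr2f, a subunit shared by the nuclear RNA polymerases, had 450 FPKM with overexpression and 941 FPKM in controls. Its exons overlap another gene on the opposite strand, and the use of strand is not stated. The list also holds Ptk2, a focal adhesion kinase, and Adsl, an enzyme of purine synthesis, which fell. Puf60 and Hnrnpa1, both of RNA processing, had log2 ratios of -0.41 and -0.28 and were not called, and Hnrnpa1 shares its deposited position with another entry. Among other abundant genes, the chaperonin subunit gene Cct5 had 627 FPKM with overexpression and 882 FPKM in controls and was not called. Pfdn5, of the prefoldin chaperone, fell, with 384 and 670 FPKM.

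The 4 ribosomal protein genes had a median of -0.80, against -0.12 for 75 on other chromosomes, where 1 fell and 0 rose. On chromosome 15, 2 of the 4 fell. Of all tested genes of the chromosome 56.2% fell, and its median was -0.63. Rpl8 had 1449 FPKM with overexpression and 2546 FPKM in controls, the highest level on the chromosome, and fell. Rpl37 fell too, with 980 and 1684 FPKM. Rpl3, with 1544 and 1869 FPKM, and Rpl30, with 187 and 413 FPKM, were not called. Rpl3, Rpl30 and Rpl37 share their deposited positions with other entries, and ribosomal protein genes have many processed copies, so their reads may be split. Gm12191, entered at the position of Rpl30, fell, with 1033 FPKM with overexpression and 1844 FPKM in controls.

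Meiotic genes fell on chromosome 15, most of them by more than the chromosome's median of -0.63. All 5 fell, with a median of -1.04, against 5 of 30 tested on other chromosomes, where 2 rose and the median was -0.07. Among all tested genes of chromosome 15, 56.2% fell. Mei1, needed for meiotic double-strand breaks, had 3.73 FPKM with overexpression and 13.0 FPKM in controls. Syce3 had 57.3 and 136 FPKM. Smc1b, a cohesin subunit of meiosis, had 47.1 FPKM with overexpression and 96.8 FPKM in controls, and the recombinase Dmc1 had 11.1 and 21.3 FPKM. Rad21, the cohesin subunit also used in mitosis, had 31.9 FPKM with overexpression and 47.7 FPKM in controls, a smaller decrease of -0.58. In the same comparison 8 of 9 markers of differentiating spermatogonia fell, none of them on chromosome 15, and their part in the meiotic values was not tested. Of the piRNA genes, the helicase gene Mov10l1 fell, with 87.9 FPKM with overexpression and 147 FPKM in controls. Gtsf1, a partner of PIWI proteins, had 252 and 312 FPKM and was not called.

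Zinc finger genes of the Zfp series also fell on chromosome 15, although their median elsewhere was 0.14. Here 8 of 9 fell and 0 rose, with a median of -0.80. On other chromosomes 3 of 264 tested fell and 24 rose. Of all tested chromosome 15 genes, 56.2% fell, and the median of the chromosome was -0.63. Zfp707 had 17.1 FPKM with overexpression and 33.4 FPKM in controls, and Zfp622 had 6.77 and 13.9 FPKM. Zfp647 had 1.39 FPKM with overexpression and 4.65 FPKM in controls. Zfp251 had a log2 ratio of -0.58 and was not called.

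Among transcription and chromatin regulators, 14 of 26 tested fell (53.8%) and 1 rose, with a median of -0.58, close to the 56.2% and -0.63 of all expressed genes on the chromosome. The stress factor Atf4 had 51.8 FPKM with overexpression and 74.6 FPKM in controls, and Atf1, a CREB relative, had 12.7 and 22.8 FPKM. Srebf2, the regulator of sterol synthesis, had 5.91 FPKM with overexpression and 12.2 FPKM in controls. Klf10, induced by TGF-beta, had 120 and 143 FPKM and was not called. The immediate-early gene Nr4a1 and Atf7 had log2 ratios of 0.20 and 0.24, and neither was called. Of 19 tested genes on the cell cycle list, 11 fell (57.9%) and 2 rose. The list median was -0.60, also close to that of the whole chromosome. The condensin II subunit Ncaph2 fell, with 39.8 FPKM with overexpression and 61.5 FPKM in controls, and Racgap1, needed for cytokinesis, had 31.9 and 61.4 FPKM. Atad2, a bromodomain ATPase, had 35.5 FPKM with overexpression and 28.9 FPKM in controls and was not called. The 2 that rose were the stress-activated kinases Mapk11 and Mapk12. The list also holds Chkb, which is counted among the sterol and lipid genes too, so it is not purely one of cell cycle genes.

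**Figure D4:**
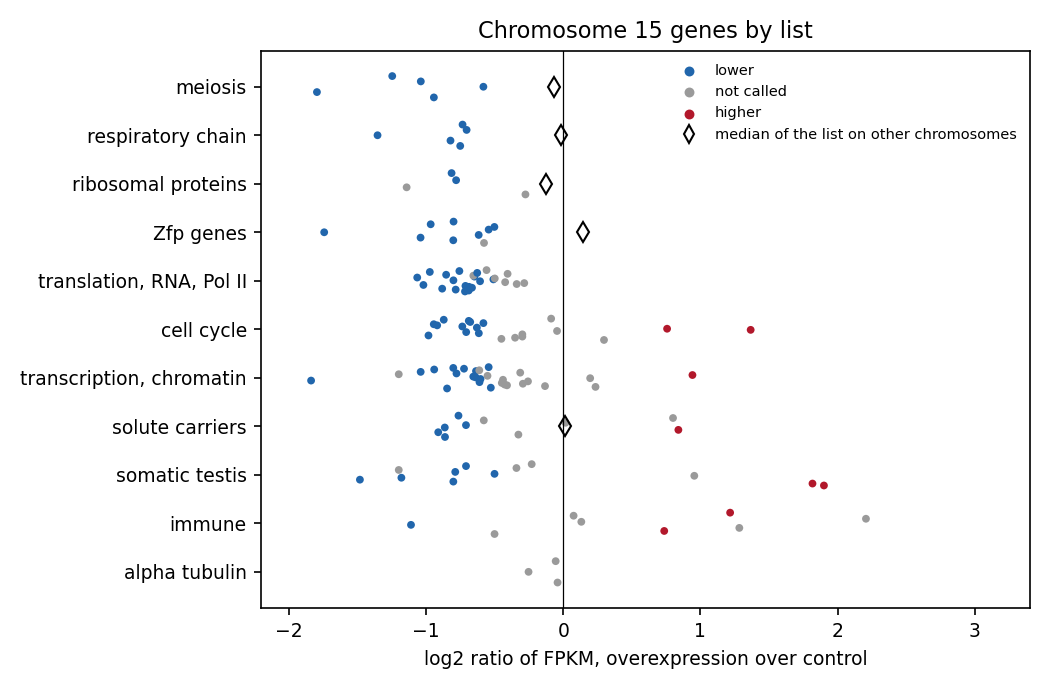
Log2 ratio of FPKM, overexpression over control, of chromosome 15 genes in 11 lists (rows), coloured by call, with open diamonds for the median of the same list on other chromosomes where it has at least 10 genes there. Respiratory and meiotic genes lie wholly below 0, and immune and somatic testis genes lie on both sides.

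Among called genes, the 10 strongest decreases were 1.61 or more on the log2 scale in size. Stronger ratios that were not called included Lrrc24, at -2.42, and 1700120C14Rik, at -2.31, named after their values were seen. Ly6k, a GPI-anchored protein of spermatogenic cells, had 5.43 FPKM with overexpression and 24.1 FPKM in controls, 4.44-fold higher in controls. Ndrg1, a stress-induced gene of differentiation, had 2.85 and 10.3 FPKM. Cacnb3, a calcium channel subunit, had 0.724 FPKM with overexpression and 2.81 FPKM in controls. Med30, of the Mediator complex, had 1.29 and 4.62 FPKM, and Mfng, a glycosyltransferase of Notch receptors, had 1.07 and 3.28 FPKM. C330013E15Rik, Mei1 and Zfp647, given above, Galnt6 and Mpped1 complete the 10. Of these 10, Cacnb3, C330013E15Rik and Mpped1 reached 1 FPKM only in controls. The authors' deposited table lists q-values of 0.000835 for Ly6k, Ndrg1 and Cacnb3, 0.0117 for Med30 and 0.00274 for Mfng. A decrease of at least 2-fold was called in 62 of the 413 tested genes, against 1.64% of tested genes on other chromosomes and 2.14% of all tested genes. A rise of that size was called in 8, against 4.47% of all tested genes.

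Not every neighbour in the Ly6 family cluster behaved as Ly6k did. Ly6k lies at 74796874 to 74799968. Gml starts at 74813455 and had 5.03 FPKM with overexpression and 4.96 FPKM in controls. Ly6e, which starts at 74955051, had 16.3 and 13.5 FPKM, and neither it nor Gml was called. Lynx1, a modulator of nicotinic receptors that starts at 74747856, fell, with 0.866 FPKM with overexpression and 2.29 FPKM in controls. In all, 2 of 4 tested genes on the Ly6 family list fell, against 56.2% of all tested genes of the chromosome. Hemt1, which GENCODE names Gml2, starts at 74819076, between Gml and Ly6e, and is not on the list. It had 8.75 FPKM with overexpression and 7.82 FPKM in controls and was not called. Members of this family are similar in sequence, which can blur counts between them.

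Some abundant genes stood apart from the shift without being called higher. Tmbim6, an endoplasmic reticulum protein that limits cell death, had 215 FPKM with overexpression and 198 FPKM in controls. Lgals1, which encodes galectin 1, had 125 and 114 FPKM. These were the only genes with at least 100 FPKM whose ratio was above 1, out of 52 with a ratio. Ywhaz, a 14-3-3 protein, had 258 FPKM with overexpression and 278 FPKM in controls. The 3 alpha tubulin genes Tuba1a, Tuba1b and Tuba1c had log2 ratios of -0.04, -0.25 and -0.05, and none was called. They are nearly identical in coding sequence, so their reads may be shared.

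The 16 genes that rose were mostly of low abundance, and 8 of them stood in 3 runs of consecutive expressed genes. In controls 12 of them were below 5 FPKM, and 1 of 107 tested genes at 20 to 100 FPKM rose, against 9.16% of such genes on other chromosomes. No chromosome 15 gene of 100 FPKM or more rose, against 5.85% elsewhere. At 1 to 5 FPKM the share was 7.77% on chromosome 15 and 11.03% elsewhere. Their median log2 ratio was 1.09.

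Amhr2 had 6.32 FPKM with overexpression and 1.69 FPKM in controls, 3.73-fold higher, the largest rise. Dab2, an endocytic adaptor of phagocytic and epithelial cells, had 19.0 and 5.40 FPKM. Sepp1, which encodes the secreted selenoprotein P, had 67.2 FPKM with overexpression and 23.0 FPKM in controls, and its exons overlap Ccdc152 on the opposite strand. Aard, on the Sertoli cell marker list, had 4.77 and 1.63 FPKM. The GTPase gene Rac2, the ARF activator gene Cyth4 and Nckap1l, of the actin-regulating WAVE complex, are genes of blood cells. Rac2 had 2.48 FPKM with overexpression and 1.07 FPKM in controls, Cyth4 had 5.26 and 3.16 FPKM, and Nckap1l had 3.19 and 1.69 FPKM. Tst, a mitochondrial sulfurtransferase, had 6.26 FPKM with overexpression and 2.08 FPKM in controls. The authors' deposited table lists q-values of 0.000835 for Amhr2, Dab2, Sepp1 and Aard, 0.00153 for Rac2, 0.0204 for Cyth4, and 0.00215 for Nckap1l and Tst.

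The genes Mapk12, Mapk11 and Plxnb2 lie next to each other, at 89130584 to 89180788, and all 3 rose. Mapk11 had 13.3 FPKM with overexpression and 5.14 FPKM in controls, and Mapk12, which encodes p38 gamma, had 5.89 and 3.49 FPKM. Plxnb2, a semaphorin receptor, had 2.81 FPKM with overexpression and 0.925 FPKM in controls, so it reached 1 FPKM only with overexpression. On either side, Hdac10 and Ppp6r2 had log2 ratios of -0.58 and -0.59 and were not called. Amhr2 and Prr13, a proline-rich protein gene with 17.8 FPKM with overexpression and 9.28 FPKM in controls, are also adjacent. The transcription factor gene Sp1, 8.96 kb before Amhr2, had a log2 ratio of -0.31, and Map3k12, beyond Prr13, of -0.34, both not called. Slc38a1, a glutamine transporter gene, rose, with 4.2 FPKM with overexpression and 2.35 FPKM in controls. Its relative Slc38a2, 44.5 kb away, fell, with 8.54 and 15.5 FPKM. Over the 16 genes, 21 different expressed neighbours did not rise themselves. Of these, 19 had log2 ratios below 0, 8 fell, and the median was -0.58. Fyb, Ppp6r2, Gm4371 and Pde1b among them were not tested. Over the chromosome 88.1% of ratios were below 1, 56.2% of tested genes fell and the median was -0.63. The neighbours were thus close to the whole chromosome in median. Tst, Rac2 and Cyth4 are also consecutive among expressed genes.

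Enpp2, which encodes autotaxin, Ano6, a phospholipid scramblase, and Rapgef3, a cAMP-activated exchange factor, complete the 16. Enpp2 had 2.57 FPKM with overexpression and 1.41 FPKM in controls, Ano6 had 2.39 and 1.23 FPKM, and Rapgef3 had 3.59 and 2.22 FPKM. Among these 3, q in the authors' deposited table ranged from 0.00274 for Ano6 to 0.0308 for Rapgef3.

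**Figure D5:**
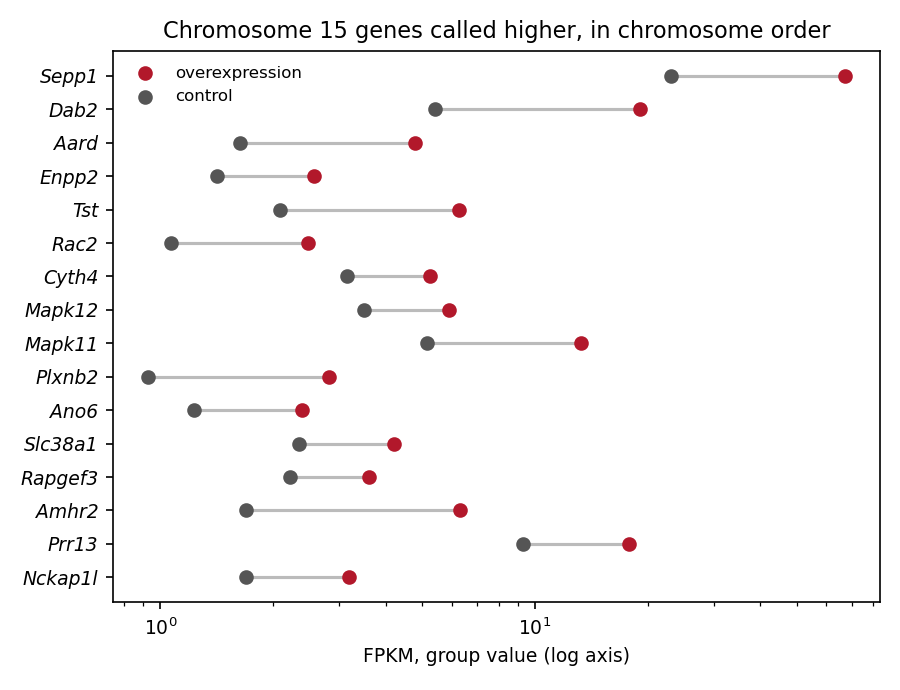
FPKM (log axis) with overexpression (red) and in controls (grey) of the 16 chromosome 15 genes called higher, from the start of the chromosome (top) to its end. Most control values lie below 5 FPKM, and Amhr2 has the largest ratio, 3.73.

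Genes of non-germ cells went both ways on the chromosome. Among 8 genes on the immune cell list, 2 of 6 tested rose and 1 fell. Lgals1, Pdgfb and Apobec3 were tested and not called, so these counts depend on the genes listed. Of all tested genes of the chromosome, 3.87% rose and 56.2% fell. Nckap1l, which rose, is not on this list. Nfam1 and Fyb, of immune cell signalling, were untested, with 1.16 and 1.35 FPKM with overexpression and 0.251 and 0.556 FPKM in controls. Both reached 1 FPKM only with overexpression, so no median is given for this list. Gsdmd, the pore-forming effector of pyroptosis, fell, with 2.15 FPKM with overexpression and 4.64 FPKM in controls. Among 12 genes listed for Sertoli, Leydig and other non-germ testis cells, 6 of 11 tested fell (54.5%) and 2 rose. The median of the 12 was -0.60. Over the chromosome 56.2% of tested genes fell and the median was -0.63. Aard, which rose, is on the Sertoli cell marker list and not among the 12, so these values depend on the genes listed. Fbln1, a matrix protein of mesenchymal cells, had 2.67 FPKM with overexpression and 7.45 FPKM in controls, and Igfbp6, which binds insulin-like growth factor 2, had 3.19 and 7.22 FPKM. Off the chromosome, 9 of 10 tested macrophage markers, 6 of 8 Sertoli cell markers and 4 of 5 Leydig cell markers rose and none fell. Their part in the chromosome 15 values was not tested.

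Of spermatid and testis genes on the list, 4 of 5 fell and 0 rose, against 56.2% and 3.87% of all tested genes of the chromosome. Ropn1l, a protein of the sperm flagellum, had 15.9 FPKM with overexpression and 35.1 FPKM in controls. Tex33, the exception, had 1.72 and 0.258 FPKM and was not called (authors' deposited table, q = 0.316). H1fnt, the testis linker histone, is not on this list and was not tested. It had 1.84 FPKM with overexpression and 0.177 FPKM in controls, the highest log2 ratio on the chromosome at 3.38. Among 10 solute carriers, 5 fell (50%) and 1 rose, and among 5 sterol and lipid genes 3 fell (60%) and 0 rose. Both shares that fell are near the 56.2% of all tested genes of the chromosome. On other chromosomes 14 of 161 tested solute carriers fell and 16 rose, and 5 of 13 sterol and lipid genes fell and 0 rose. Dgat1, which makes triglycerides, had 5.06 FPKM with overexpression and 13.5 FPKM in controls.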

How the data were processed

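Per the labels, extraction used Trizol and libraries used oligo d(T) primers. The submitters' processing notes name TopHat, Cufflinks and mm9, without versions. The deposited positions fit GRCm38: of 804 chromosome 15 symbols that GENCODE M21 also lists, 803 lie over the gene of the same name. Deposited starts count from 0 and were raised by 1. The authors' deposited values are FPKM, 1 per group, with p-values and q-values from their own test. The layout is that of a Cuffdiff gene comparison, per the file headers, and the scaling between libraries is not given in the sources used here. Entries that share a deposited position (80 of 445) carry the start of the shared region.

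Log2 ratios were recomputed from FPKM without a pseudocount, as the deposited log2 column has error text in 661 cells. Elsewhere both differed by at most 3.04e-05. The deposited test statistic, of no stated scale, was not used as a score. Calls use the authors' q of at most 0.05 with status OK, adjusted over 10990 tested genes. No model was refitted and no list was tested. Medians and interval summaries were checked on simulated data. Python 3.11.15 and pandas 2.3.3 were used.

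Members, gene lists and summaries were chosen with earlier results of these data known. Named genes were all that rose, the 10 strongest called decreases, the 10 most abundant, the highest ratios among genes not called, those nearest 1 FPKM, the first and last by position, neighbours of genes that rose, and up to 4 abundant members of each list. Others were named after their values were seen, and not every gene the rule takes is described. Members with symbols turned into dates are counted and not named. A further item is not reported here, and the respiration list was narrowed to subunits after its values were seen. Alternatives were other q, FPKM and fold thresholds, pseudocounts, centring, gene classes and intervals.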

Additional observations from a re-analysis of the deposited data

How the results depend on the processing

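The median log2 ratio of chromosome 15 genes stayed between -0.65 and -0.55 under 10 alternatives (2 pseudocounts, other FPKM minima, tested or protein-coding genes alone, centring on the other chromosomes, and leaving out entries with several symbols or a shared position). The last of these, and the use of GENCODE gene starts, were chosen after seeing the data. Genes that fell numbered 177 at a q of 0.01 (4.09% of all tested genes fell there) and 261 at 0.1 (9.77%). With a 2-fold minimum 62 fell and 8 rose, where 2.14% and 4.47% of all tested genes did. Those that rose numbered 8 at 5 FPKM or more. The interquartile range was 0.852 with no minimum FPKM, which adds sparse entries. Lowest and highest interval medians changed by less than 1.5 times under other interval widths, midpoints, levels and starts. Leaving out replicates was not run, as the table holds 1 value per group. No paired analysis was possible because the columns carry no replicate numbers. Depth per sample is unknown, which limits what a gene not called shows.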

Other observations

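Chromosome 15 entries below 1 FPKM did not share the shift to the same extent. Of these 422 entries, none was tested by the authors, 106 were at 0 in both groups, and 242 had a ratio, with a median log2 ratio of 0.01. At 0.2 to 1 FPKM the median was -0.18 for 139 entries with a ratio on chromosome 15 and 0.14 for 3161 on other chromosomes. Silent families made up part of them. All 9 HoxC entries, 24 of 25 keratin entries and 10 of 15 entries on the Ly6 family list were below 1 FPKM. The keratin above it was Krt18, a keratin of simple epithelia, with 2.46 FPKM with overexpression and 1.27 FPKM in controls, which was not called.

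Outside chromosome 15, the X chromosome had the highest median log2 ratio, 0.15. Of 238 intervals of 10 Mb on other chromosomes, the highest median was 0.55, between 30 and 40 Mb of X, where 16 of 43 tested genes rose and 0 fell. This was noticed in the data and was not tested.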
